A study of Homo sapiens with 6 samples.

Results

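The clustered protocadherins are cell surface adhesion proteins of the cadherin superfamily, encoded by neighbouring alpha, beta and gamma gene clusters on chromosome 5. Members were taken from the gene table by symbol, as PCDHA, PCDHAC, PCDHB, PCDHGA, PCDHGB or PCDHGC followed by a number. This gave 55 of 57820 genes, with 16 in the alpha, 18 in the beta and 21 in the gamma cluster, and no symbol occurred more than once. Expression was measured by RNA-seq in M14, a human melanoma cell line that stably carries a doxycycline-inducible shRNA against STAG2, a subunit of the cohesin ring that holds DNA loops. All libraries came from this one shRNA line, kept under puromycin. Cells cultured for 5 days with doxycycline are called KD and cells cultured without it WT, with 3 libraries of each. WT therefore means cells with the uninduced hairpin. No library with doxycycline and another hairpin was compared here, so loss of STAG2 and other effects of doxycycline or of the hairpin cannot be told apart.

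In the alpha and gamma clusters each gene starts with its own large exon, which encodes the extracellular cadherin repeats and the membrane-spanning part. That exon is spliced to constant exons at the end of the cluster, which encode a cytoplasmic tail shared by the genes of that cluster. PCDHA14 differs, since its annotated 2298 bases form a single exon that ends before the constant exons. Beta genes consist of a single exon and lack a shared tail. Each variable exon has its own promoter, most with a short conserved element around the letters CGCT. The factor CTCF binds there, and cohesin-dependent loops bring distal enhancers to the promoter. In neurons each cell uses a few of these promoters, and the resulting set of surface proteins serves in self-recognition of neurites. The C-type genes at the 3′ end of the alpha and gamma clusters are used more broadly.

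The promoter elements of 6 gamma genes are printed here. PCDHGC3 and PCDHGB4 are among the 3 gamma genes with the highest level, PCDHGA3, PCDHGA4 and PCDHGA11 had an unadjusted p under 0.05, and PCDHGA5, chosen after its values were seen, shares its letters before CGCTG with PCDHGA3 and PCDHGA4. Sequences are from RefSeq on GRCh38.p14, plus strand, 5′ to 3′, and all lie before the annotated start. Capitals mark CGCTG, for PCDHGC3 the first of 2 such matches.
PCDHGA3: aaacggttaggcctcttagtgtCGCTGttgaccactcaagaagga
PCDHGA4: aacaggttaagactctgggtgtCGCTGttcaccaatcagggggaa
PCDHGA5: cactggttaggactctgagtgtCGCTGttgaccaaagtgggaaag
PCDHGB4: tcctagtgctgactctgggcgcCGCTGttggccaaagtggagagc
PCDHGA11: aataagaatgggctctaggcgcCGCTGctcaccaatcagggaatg
PCDHGC3: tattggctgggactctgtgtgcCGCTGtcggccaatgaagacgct
They lie at chr5:141343761-141343805 (PCDHGA3), chr5:141354954-141354998 (PCDHGA4), chr5:141364101-141364145 (PCDHGA5), chr5:141387611-141387655 (PCDHGB4), chr5:141420966-141421010 (PCDHGA11) and chr5:141475874-141475918 (PCDHGC3). The RefSeq table held a promoter for 46 of the 55 members. PCDHGA12 had no entry.

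Total expected counts per library ranged from 24895998 to 35181733. Expected counts are RSEM's estimates and need not be whole, because a read compatible with more than 1 gene is split among those genes. Values below are CPM, counts scaled to a common library size of 1000000 with TMM factors, and a floor of 3 counts corresponded to 0.0869 to 0.112 CPM. Intervals and floors of this kind cover counting error only. Both replicates 1 stood apart from the other libraries. PMEL, a melanosome protein, was at 3367 CPM in WT replicate 1 and 1253 CPM in KD replicate 1, against 357 to 683 CPM in the other 4. WT replicate 1 had the most genes above 0 (20646) and KD replicate 1 the fewest (16028). All 10 markers of melanoma and the melanocyte lineage averaged at least 1 CPM, and their sum was 2843 to 7359 CPM in WT and 2453 to 3502 CPM in KD. Of 5 neuronal markers 1 reached that level, and STMN2 and ELAVL4 were at 0 in every library. The immune list summed to 26.8 to 40.7 CPM in WT and 91.0 to 127 CPM in KD, nearly all of it CD68, a lysosomal protein that is also made outside immune cells. CD3E was at 0 everywhere and PTPRC was at 0 in all libraries except WT replicate 3 (0.582 CPM). Of 6 fibroblast markers 2 averaged at least 1 CPM, and the list summed to 4.77 to 93.5 CPM in WT and 3.48 to 23.4 CPM in KD. COL1A1, a collagen chain that made up most of it in WT replicates 2 and 3, was at 2.65, 85.0 and 58.0 CPM in WT and 1.40, 19.3 and 17.7 CPM in KD, lower in KD in each same-numbered pair, as was the gamma sum. The epithelial list summed to 153 to 457 CPM in WT and 170.3 to 305 CPM in KD. Nearly all of it was KRT18 (131 to 414 CPM in WT and 148 to 279 CPM in KD) and KRT8. EPCAM was at 0.149 to 0.406 CPM in WT and at 0 in all KD libraries. Among all these markers the edgeR test used below called S100B and CD68, against 2.59% of all tested genes. S100B, of the melanoma list, averaged 117 CPM in WT and 45.8 CPM in KD (log2 fold change -1.35, adjusted p = 0.00949 by edgeR). CD68 had a log2 fold change of 1.59 (adjusted p = 0.00855 by edgeR). The part of these shifts in the results below was not tested.

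STAG2 itself was at 66.4, 34.7 and 28.8 CPM in WT and 15.9, 7.30 and 6.69 CPM in KD. Every KD library was below every WT library, and STAG2 fell by 2.12 on the log2 scale (SE 0.43, adjusted p = 0.0342, edgeR quasi-likelihood test, adjusted by Benjamini-Hochberg for the 15605 genes tested). That call was lost when WT replicate 2, WT replicate 3, KD replicate 2 or KD replicate 3 was left out (adjusted p from 0.0652 to 0.168 by edgeR).

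The gamma cluster carried nearly all of the clustered protocadherin signal of these cells. Its members summed to 445, 567 and 474 CPM in WT and 261, 428 and 374 CPM in KD. All KD sums were below all WT sums, the nearest being WT replicate 1 and KD replicate 2. The mean sum was 495 ± 63.9 CPM without and 355 ± 85.4 CPM with doxycycline (SD, n = 3), a log2 ratio of -0.48. Between libraries of the same number the log2 ratio was -0.77, -0.40 and -0.34 for replicates 1, 2 and 3, and without KD replicate 1 the ratio of the means was -0.30. The beta cluster summed to 12.5, 5.88 and 10.8 CPM in WT and 11.6, 10.9 and 14.01 CPM in KD. The conditions overlapped, with means of 9.74 ± 3.45 and 12.2 ± 1.64 CPM (SD, n = 3) and a log2 ratio of 0.32. The alpha cluster was close to silent. Its 16 members together gave 1.52, 0.638 and 1.67 CPM in WT and 0.249, 1.19 and 1.10 CPM in KD, which also overlapped. Between same-numbered libraries the log2 ratio had no common sign for beta (-0.11, 0.89 and 0.37) or alpha (-2.62, 0.89 and -0.60). No p-value is given for these sums, since they were formed over chosen members. With bulk RNA, fewer cells that transcribe a gene and less RNA per cell cannot be told apart.

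**Figure D1:**
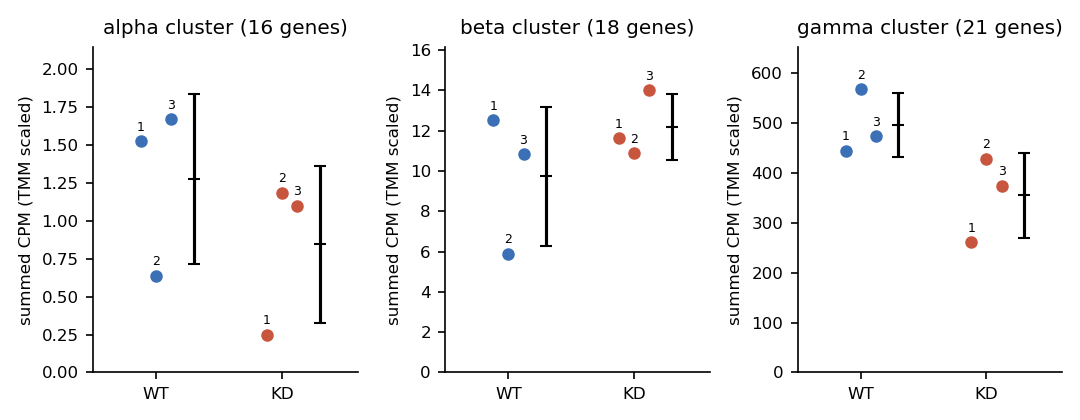
Summed CPM of the alpha, beta and gamma members in each library. Points are libraries with their replicate number, and bars give the mean and SD of 3 libraries. The gamma sums of KD (261 to 428 CPM) lie below those of WT (445 to 567 CPM), while alpha and beta overlap.

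Of the 55 members, 33 passed the filter on low counts and were tested, namely 1 alpha, 11 beta and all 21 gamma genes. At an adjusted p under 0.05 edgeR called 0 of the 33, while it called 2.59% of all tested genes, and limma-voom also called 0 against 2.64% of all genes. In the edgeR fit an unadjusted p under 0.05 was found for 5 members (PCDHGA3, PCDHGA4, PCDHGA11, PCDHGA12 and PCDHGC3), against 14.8% of all tested genes. DESeq2 called PCDHGA3 and PCDHGA4 higher, against 5.63% of all genes called. The WT and KD libraries did not overlap for 4 members, PCDHGA4 and PCDHB9 with KD above and PCDHGC3 and PCDHGA11 with KD below, against 22.3% of all tested genes. The share of members with a low p or without overlap was thus near or under the share over all genes.

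Libraries with the same replicate number deviated together, most clearly both replicates 1, although the labels name no pairing. With the number as a block in the edgeR fit 4 members passed, against 9.52% of all tested genes. PCDHGA3 and PCDHGA4 were called higher, and PCDHGA12 and PCDHGC3 lower. With both replicates 1 left out, PCDHGA3 alone was called, against 4.73% of all genes. The median log2 fold change of the 33 tested members was -0.01 and that of all tested genes was -0.03. With 3 libraries against 3, the smallest two-sided p an exact permutation test can give is 0.1, so single values were not tested that way. The labels do not say that the libraries came from separate cultures, so p-values measure the spread between these libraries.

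PCDHGC3, the first of the C-type genes at the 3′ end of the gamma cluster, had the highest level of any member, 35.9 CPM per kb of exon averaged over all libraries. It spans 5:140855514-140892544 on GRCh37 and was at 221, 285 and 204 CPM in WT and 120.3, 170.3 and 169 CPM in KD. No KD library reached the lowest WT library. Mean PCDHGC3 was 237 ± 42.8 CPM without and 153 ± 28.7 CPM with doxycycline (SD, n = 3). The log2 fold change of PCDHGC3 was -0.63 (SE 0.22, adjusted p = 0.206 by edgeR) and -0.63 with the replicate block (SE 0.16, adjusted p = 0.0350), so the call was made only in the blocked fit.

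PCDHGA12, the last A-type gene before the C-type genes, was second with 28.9 CPM per kb. Its values were 146, 182 and 179 CPM in WT and 83.5, 151 and 105 CPM in KD. KD replicate 2 lay above WT replicate 1, and the other KD libraries lay below all WT libraries. The fitted log2 fold change of PCDHGA12 was -0.58 (SE 0.24, adjusted p = 0.302 by edgeR), and -0.61 with the block (SE 0.16, adjusted p = 0.0385).

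After these genes the level dropped by an order of magnitude. PCDHGB4, a B-type gene near the middle of the cluster and next in level with 2.94 CPM per kb, was at 18.1, 18.4 and 25.8 CPM in WT and 12.6, 25.2 and 21.6 CPM in KD. The conditions overlapped, and the log2 fold change of -0.07 (SE 0.31, adjusted p = 0.962 by edgeR) changed sign when WT replicate 3 or KD replicate 1 was left out. PCDHGA11, the A-type gene directly before PCDHGA12, was at 10.9, 14.2 and 16.3 CPM in WT and 5.63, 10.3 and 8.12 CPM in KD. All KD libraries were lower, those of WT replicate 1 and KD replicate 2 being nearest, and the log2 fold change was -0.78 (SE 0.34, adjusted p = 0.316 by edgeR).

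PCDHGA3 and PCDHGA4, A-type genes near the 5′ end of the cluster, had the largest positive differences in it. PCDHGA3 was at 0.917, 2.74 and 2.92 CPM in WT and 2.28, 11.0 and 19.0 CPM in KD. KD replicate 1 lay inside the WT range, while KD replicates 2 and 3 lay far above it. The log2 fold change of PCDHGA3 was 2.29 (SE 0.73, adjusted p = 0.163 by edgeR). It passed with the replicate block (2.02, SE 0.40, adjusted p = 0.0119), and also without KD replicate 1 (2.77, adjusted p = 0.0463), while over all fits that left out 1 library the adjusted p ran from 0.0463 to 0.540.

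PCDHGA4 was at 1.45, 2.20 and 1.67 CPM in WT and 8.83, 8.83 and 4.08 CPM in KD. Here all KD libraries exceeded all WT libraries. The log2 fold change of PCDHGA4 was 2.03 (SE 0.50, adjusted p = 0.0727 by edgeR). With the block it was 1.96 (SE 0.48, adjusted p = 0.0305), and DESeq2 gave 2.02 (adjusted p = 0.00693). Leaving out 1 library at a time gave adjusted p from 0.101 to 0.294.

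**Figure D2:**
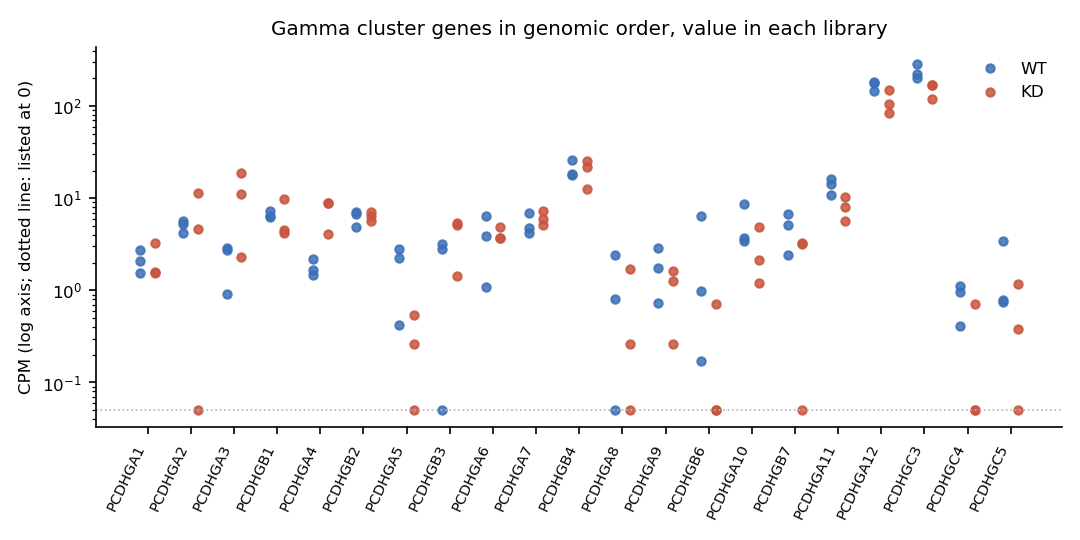
CPM of each gamma member in each library on a log axis, with genes in genomic order from PCDHGA1 to PCDHGC5, WT in blue and KD in red. Points on the dotted line are listed at 0. PCDHGC3 and PCDHGA12 stand above all others at 83.5 CPM or more, and the KD points of PCDHGA4 (4.08 to 8.83 CPM) lie above those of WT (1.45 to 2.20 CPM).

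The other 15 gamma members averaged 0.534 to 6.43 CPM and had an unadjusted p of 0.0929 or more in the edgeR fit without the block. Their log2 fold changes ran from -3.41 for PCDHGB6 to 0.98 for PCDHGB3, with SE between 0.36 and 1.87. PCDHGB6 and PCDHGA5, chosen here after their values were seen, had the largest negative differences. The unadjusted p of PCDHGB6 was 0.0112 by edgeR with the block and 0.0263 by DESeq2 (adjusted p = 0.0852 and 0.217). That of PCDHGA5 was 0.157 by edgeR with the block and 0.0331 by DESeq2 (adjusted p = 0.425 and 0.249). PCDHGB6 was at 0.994, 6.37 and 0.169 CPM in WT and 0, 0.703 and 0 CPM in KD, so most of its WT mean came from WT replicate 2. PCDHGA5 was at 2.27, 2.78 and 0.417 CPM in WT and 0, 0.547 and 0.263 CPM in KD. PCDHGA2 spread most within KD, from 0 to 11.3 CPM, around WT values of 4.16 to 5.63 CPM, and its log2 fold change was 0.09 by edgeR, -0.91 with the block and -2.46 by limma-voom. In contrast, PCDHGB2 was nearly level, at 4.87 to 7.13 CPM in WT and 5.73 to 7.16 CPM in KD.

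Several gamma members were listed at 0 in single libraries. KD replicate 1 had 7 of the 21 at 0 (PCDHGA2, PCDHGA5, PCDHGA8, PCDHGB6, PCDHGB7, PCDHGC4 and PCDHGC5), and the other libraries had 0 to 2. By counting error alone, a count of 0 in KD replicate 1 allows up to 0.0933 CPM. That limit does not cover the division of shared reads by RSEM. Over all 55 members, 25 were above the floor in KD replicate 1 and 31 to 40 in the others. This library also had the lowest gamma sum and the fewest genes above 0, and the part of the library in these zeros was not tested.

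The make-up of the gamma sum was also compared, since a share within the cluster does not depend on the scaling between libraries. PCDHGC3 and PCDHGA12 together made up 82.6%, 82.4% and 80.8% of the sum in WT and 78.1%, 74.9% and 73.4% in KD. PCDHGA3 and PCDHGA4 together made up 0.534%, 0.872% and 0.968% in WT and 4.26%, 4.63% and 6.15% in KD. In neither pair did the conditions overlap, with means of 81.9 ± 0.952% and 75.5 ± 2.36% for the former, and 0.791 ± 0.228% and 5.01 ± 1.00% for the latter (SD, n = 3). In CPM, PCDHGA3 and PCDHGA4 together averaged 3.97 ± 1.39 in WT and 18.0 ± 6.18 in KD, 4.54 times as much. The other 17 genes held 16.8% to 18.2% in WT and 17.7% to 20.4% in KD, which overlapped. These groups were chosen after the values of their genes were seen, so the shares are a description without a test.

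**Figure D3:**
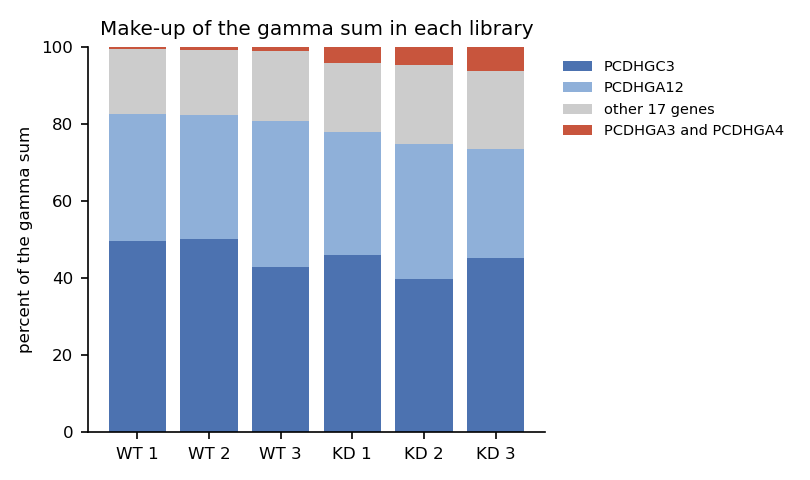
Percent of the gamma sum in each library held by PCDHGC3, PCDHGA12, PCDHGA3 with PCDHGA4, and the other 17 genes. Bars start at 0 and add up to the whole sum. The share of PCDHGA3 with PCDHGA4 is below 1% in each WT library and 4.26% to 6.15% in KD.

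The differences were not spread evenly along the cluster. Of the 6 genes from PCDHGA1 to PCDHGB2, upstream of PCDHGA5, 4 had a log2 fold change above 0, and the median was 0.07. PCDHGA2 was among the 4, at 0.09, but was at -0.91 with the replicate block. Of the 15 genes from PCDHGA5 to PCDHGC5, 12 were below 0 and the median was -0.76. Across the 21 genes, the log2 fold change against the distance of the gene's start from that of PCDHGA1 had a Pearson r of -0.52 and a Spearman rho of -0.66. Without PCDHGA3 and PCDHGA4 these were -0.43 and -0.59 over 19 genes, and over the 16 genes with a mean of at least 1 CPM in both conditions they were -0.62 and -0.68. With the replicate block r and rho were -0.58 and -0.58 over the 21 genes, -0.51 and -0.52 over the 19, and -0.51 and -0.50 over the 16. The points share the same 6 libraries, the 3′ exons and the reads divided between them, and many have wide errors, so the values describe this cluster and carry no p. The boundary at PCDHGA5 was set after the values were seen.

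**Figure D4:**
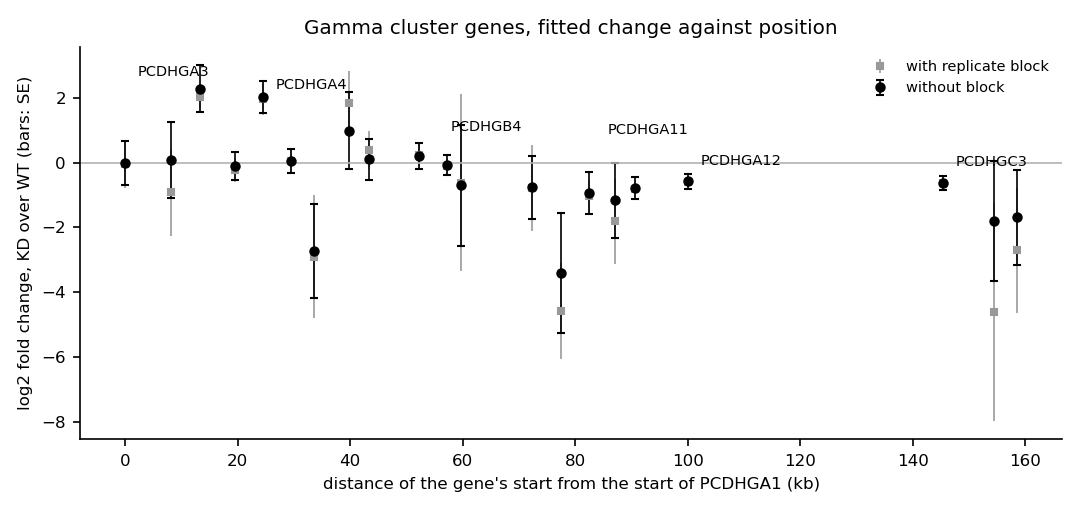
Fitted log2 fold change (KD over WT) of the 21 gamma members against the distance in kb of the gene's start from the start of PCDHGA1. Black points are from the edgeR fit without and grey squares with the replicate block, and bars are SE. PCDHGA3 (2.29) and PCDHGA4 (2.03) lie near the 5′ end, and 12 of the 15 genes from PCDHGA5 on lie below 0.

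How far reads can be assigned to single genes limits these values. For gamma genes, 30.7% to 71.1% of the 50-base windows of the annotated transcripts also occurred in another member or in PCDHGB5. The share was 71.1% for PCDHGB4 and 38.3% for PCDHGC3. For beta genes this share was 0% to 45.5%. For alpha genes it was 22.5% to 68.7%, apart from PCDHA14 at 100%. Reads from the shared 3′ exons cannot name a gene, and RSEM divides them according to the reads in the variable exons. Every gamma gene also overlaps those downstream of it, since their first exons lie in its introns. The gamma sum is less open to this division than the value of a single gene.

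The promoter letters were counted in windows from 250 bases before to 50 bases after the RefSeq start, on either strand. CGCT occurred in 19 of 19 gamma, 14 of 14 beta and 12 of 13 alpha promoters, against 70.0% of 35116 RefSeq promoters of the same length. CGCTG, which contains CGCT, occurred in 19 of 19 gamma, 12 of 14 beta and 9 of 13 alpha promoters, against 48.0% of all promoters. CGCT is also part of the longer forms GCCGCT and GTCGCT. The form GCCGCT occurred in 12 of 19 gamma, 0 of 14 beta and 1 of 13 alpha promoters, against 22.7% of all promoters. The form GTCGCT occurred in 6 of 19 gamma, 2 of 14 beta and 11 of 13 alpha promoters, against 7.97% of all promoters.

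Within the gamma cluster, the bases directly before the first CGCTG on the gene's strand were GT in PCDHGA2, PCDHGA3, PCDHGA4, PCDHGB2, PCDHGA5 and PCDHGA6. These 6 genes lie in the 5′ part of the cluster and had a median log2 fold change of 0.09. PCDHGA3, PCDHGA4 and PCDHGA5 share these letters, as printed above, and had log2 fold changes of 2.29, 2.03 and -2.73. In 11 other gamma promoters the bases were GC, including those of PCDHGB4, PCDHGA11 and PCDHGC3, with a median of -0.71. The letters and the position along the cluster mostly go together, and they were not tested apart. PCDHGA1 and PCDHGB1, both with GC, lie upstream of PCDHGA5 and had log2 fold changes of -0.01 and -0.11. A match is only a match of letters.

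The beta cluster was transcribed at a low level, at most 0.494 CPM per kb for a single gene, and 3 to 9 of its 18 genes were at 0 in each library. PCDHB2 and PCDHB6, which encode adhesion proteins without the shared tail, had the highest levels. PCDHB2 was at 2.35, 1.10 and 3.57 CPM in WT and 0.686, 1.89 and 2.53 CPM in KD. PCDHB6 was at 1.55, 0.422 and 1.21 CPM in WT and 1.18, 2.11 and 3.08 CPM in KD. Both overlapped between the conditions, with adjusted p of 0.870 and 0.687 (edgeR).

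PCDHB16, next in mean CPM, was at 1.78, 0.899 and 1.27 CPM in WT and 1.97, 0.907 and 1.96 CPM in KD, again with overlap and an adjusted p of 0.926 (edgeR). PCDHB9 was the one tested beta gene whose conditions did not overlap. It was at 0.622, 0.511 and 0.410 CPM in WT and 1.35, 1.38 and 1.38 CPM in KD. The log2 fold change of PCDHB9 was 1.40 (SE 1.00, adjusted p = 0.615 by edgeR). Of the 11 tested beta genes 9 had a log2 fold change above 0 and 2 below, with a median of 0.38 and a range from -0.52 to 2.72. The top of that range was PCDHB8, at 0.514, 0 and 0 CPM in WT and 2.85, 0.101 and 0.483 CPM in KD, so it rested on KD replicate 1. PCDHB1 was at 0 in all 6 libraries.

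In the alpha cluster 7 of 16 genes were at 0 in every library, including both C-type genes, PCDHAC1 and PCDHAC2. Single libraries had 1 to 6 alpha genes above 0. PCDHA7, the one alpha gene that passed the filter, was at 0.542, 0.574 and 1.02 CPM in WT and 0, 0.135 and 0.734 CPM in KD. The conditions overlapped, and its log2 fold change was -1.30 (SE 1.63, adjusted p = 0.813 by edgeR). PCDHA9 was at 0.126, 0.0638 and 0.109 CPM in WT and 0.249, 0.476 and 0 CPM in KD. PCDHA6 was at 0.558, 0 and 0.182 CPM in WT and at 0 in all KD libraries. The whole alpha cluster rested on 8 to 46 expected counts per library.

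The genes around the clusters were compared in the same fit. Of 22 neighbours, 21 were tested and edgeR called 0, against 2.59% of all tested genes. Their median log2 fold change was 0.16, with 15 above 0. TAF7, a subunit of the general transcription factor TFIID whose gene lies between the beta and gamma clusters, was at 48.0, 30.7 and 27.1 CPM in WT and 63.7, 41.6 and 43.3 CPM in KD. TAF7 was higher in KD in each of the 3 same-numbered pairs, although the conditions overlapped (log2 fold change 0.49, SE 0.28, adjusted p = 0.475 by edgeR). SLC25A2, a mitochondrial ornithine carrier also lying there, was at 0 in every library. With the replicate block 1 neighbour, PCDH1, a protocadherin gene outside the clusters, was called higher (log2 fold change 0.93, SE 0.24, adjusted p = 0.0388 by edgeR, against 9.52% of all genes called).

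**Figure D5:**
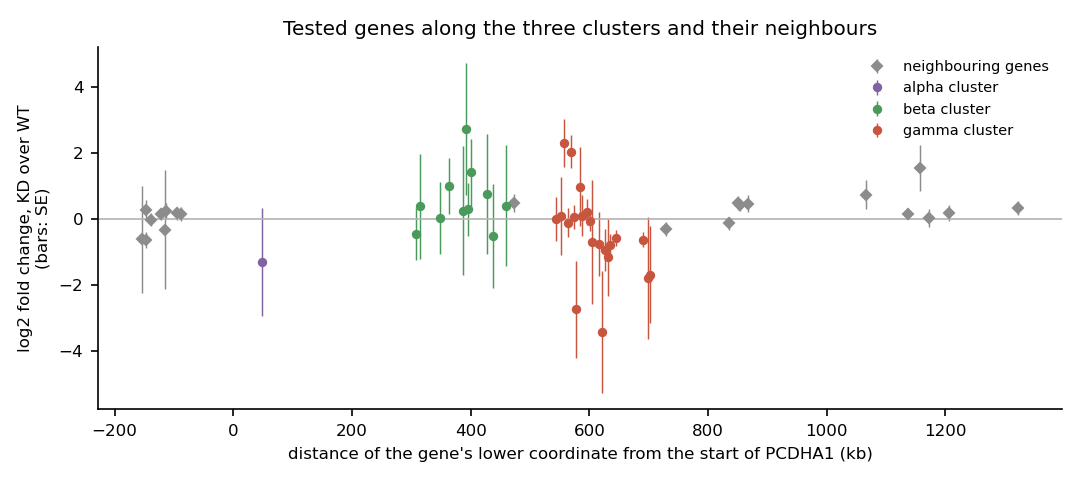
Fitted log2 fold change (KD over WT, bars are SE) of tested alpha, beta and gamma members and neighbouring genes, against the distance in kb from the start of PCDHA1. Most neighbours lie close to 0 with a median of 0.16, and the gamma genes range from -3.41 to 2.29.

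Factors that act at these clusters were listed as CTCF, the cohesin subunits and their loaders and release factors, and chromatin factors such as SMCHD1 and SETDB1. All 22 were tested, and STAG2 was the one gene that edgeR called, against 2.59% of all tested genes. The log2 fold change was below 0 for 20 of the 22, with a median of -0.44, while 52.0% of all tested genes were below 0. The WT and KD libraries did not overlap for 6 of the 22, against 22.3% of all tested genes. STAG1, STAG2, SMC1A, DNMT3A and DNMT3B had KD below WT, and MAU2 had KD above WT. CTCF was at 44.3, 53.2 and 53.9 CPM in WT and 43.96, 46.5 and 51.1 CPM in KD. Its conditions overlapped, with a log2 fold change of -0.10 (SE 0.19, adjusted p = 0.890 by edgeR). With the replicate block RAD21, the cohesin subunit that closes the ring, was also called lower (-0.85, SE 0.18, adjusted p = 0.0181 by edgeR), which made 2 of 22 against 9.52% of all genes.

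Relatives outside the clusters, such as the delta protocadherins, FAT, DCHS, CELSR and classical cadherins, gave 18 tested genes of 28. Of these edgeR called 0, against 2.59% of all tested genes, and the median log2 fold change was -0.20. The blocked fit called 4 of them, PCDH1 higher and PCDH7, CDH3 and CELSR2 lower, against the 9.52% of all genes called in that fit. PCDH7, a delta protocadherin, was at 34.9, 28.1 and 20.2 CPM in WT and 12.9, 13.9 and 14.8 CPM in KD. All its KD libraries lay below those of WT (log2 fold change -0.97 with the block, SE 0.24, adjusted p = 0.0318 by edgeR).

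Proteins known to bind, cleave or signal from clustered protocadherins gave 21 tested genes of 22. Of these edgeR called 1, against 2.59% of all tested genes. PTK2B, which encodes the focal adhesion kinase relative PYK2, a kinase bound by the protocadherin tails, was at 3.61, 3.65 and 4.29 CPM in WT and 15.4, 8.75 and 11.7 CPM in KD. The conditions did not overlap, and PTK2B rose by 1.63 on the log2 scale (SE 0.36, adjusted p = 0.0462 by edgeR). The call was lost with upper-quartile scaling, with limma-voom, and when any 1 library was left out (adjusted p from 0.0632 to 0.198 by edgeR). With the block 3 more were called, CYFIP2 of the WAVE actin-regulating complex and NCSTN of gamma-secretase higher, and PSENEN of gamma-secretase lower, which made 4 of 21 against 9.52% of all genes. The median of the list was -0.09.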

How the data were processed

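Polyadenylated RNA of 3 WT and 3 KD samples was read as single 50-base reads. The authors aligned them to hg19 with STAR and deposited RSEM expected counts per gene, neither scaled nor filtered. The annotation release is not given in the sources used here, and the strand setting of the counting is not known. Expected counts were rounded, filtered with filterByExpr (15605 genes), scaled by TMM and tested with edgeR 4.0.16 (R 4.3.3, quasi-likelihood, Benjamini-Hochberg, adjusted p under 0.05). Cluster sums, lists and promoter letters were computed in Python 3.11.15, and shared windows from GENCODE 44 transcripts lifted to GRCh37. Deviations from the condition means correlated between same-numbered libraries (r = 0.470, 0.319 and 0.262 over 12645 genes), so the replicate block is given where it changes a call. Replicates 2 and 3 also correlated across numbers (r = 0.158 and 0.146), and replicate 1 against the others gave r from -0.355 to -0.298. Deviations cancel out within a condition, so these negative values follow from the positive r between both replicates 1 and are no separate finding. The labels give replicate numbers and name no pairing. Alternatives were DESeq2 1.42.0, limma-voom (limma 3.58.1), other scalings and filters, an adjusted p under 0.01 and leaving out libraries. When the fits were tested on simulated data, DESeq2 called more unchanged genes than edgeR or limma-voom did. DESeq2 also found more of the changed genes, and each tool missed most of the smaller changes. A gene that was not called may thus still have changed. Values are given for members called with or without the block, the 3 highest by mean CPM of each cluster and up to 3 per cluster with the largest change without overlap. Members and lists were chosen with earlier results of these data known.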

Additional observations from a re-analysis of the deposited data

How the results depend on the processing

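The gamma, beta and alpha sums kept their direction under every scaling, with members that passed the filter alone, with pairs averaged and without any 1 library, although single pairs of beta and alpha differed in sign. Without both replicates 1 the log2 ratios were -0.37, 0.57 and -0.015 for gamma, beta and alpha. Leaving out 1 library gave log2 ratios of -0.64 to -0.30 for gamma, 0.06 to 0.54 for beta and -0.92 to -0.16 for alpha. The count of called genes was 404, and it was 1486 with the replicate block, 991 with DESeq2, 1103 without a filter on low counts, 137 at an adjusted p under 0.01 and 121 to 531 without 1 library (lowest without KD replicate 3). Without both replicates 1, an alternative chosen after seeing the data, it was 757. The count of members called higher was 0 of 33 tested. It was 2 of 33 with the block (9.52% of all genes called) and 2 of 36 with an adjusted p by DESeq2 (5.63%). Without a filter it was 2 of 47, against 1103 of 24277 genes. With at least 10 counts in every library it was 1 of 16, against 452 of 12743 genes. Without both replicates 1 it was 1 of 31 (4.73% of all genes called), and without 1 library it was 0 to 1. The count called lower was 0, and 2 with the block. The shares called over all genes, to be set beside the list counts that follow, were 2.59% by edgeR and 9.52% with the block. They were 5.63% by DESeq2 and 2.64% by limma-voom. For the regulators the count was 1, and it was 2 with the block and without a filter, 0 at an adjusted p under 0.01 and 0 to 1 without 1 library. For the neighbours it was 0, and 1 with the block and without a filter. For relatives outside the clusters it was 0, and 4 with the block, 1 with DESeq2 and 3 without a filter. For the partners it was 1, and 4 with the block, 3 without a filter, 0 with upper-quartile scaling, limma-voom and an adjusted p under 0.01, and 0 to 1 without 1 library (the 1 was CYFIP2, without WT replicate 1). The block changed no other call. PCDHGB4 turned from -0.07 to 0.12 without WT replicate 3, to 0.18 without KD replicate 1 and to 0.094 without both replicates 1, and ran from -0.28 to 0.18 without 1 library. For the 11 tested members chosen by the naming rule, 128 of the other values kept their direction and side of the threshold and 11 crossed to an adjusted p under 0.05. The cause of these shifts was not tested, beyond the number of genes or libraries each alternative holds. Depth limits most the alpha genes, which together had 8 to 46 expected counts per library, and the 7 beta genes that did not pass the filter.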
